A study of Mus musculus with 4 samples.

Results

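The genes described here are 10 members and regulators of the BCL2 family: Bcl2, Bcl2l1, Bcl2l11, Bcl2l14, Mcl1, Bax, Bak1, Bbc3, Pmaip1 and Bid. They were chosen by name, and each was found in the count table by its Ensembl gene ID, so all 10 are present among 49315 genes and all 10 passed the filter on low counts that left 14656 genes for testing. Proteins of this family decide whether a cell opens its outer mitochondrial membrane during apoptosis. Anti-apoptotic members (BCL2, BCL-XL from Bcl2l1, and MCL1) hold the pore-forming effectors BAX and BAK in check. The BH3-only proteins (BIM from Bcl2l11, PUMA from Bbc3, NOXA from Pmaip1, and BID) bind the anti-apoptotic members or the effectors when stress or death receptor signals arrive. In macrophages MCL1 and the A1 proteins are known as survival factors during inflammation.

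RNA was sequenced from mouse bone marrow-derived macrophages, which grow out of marrow cells in medium conditioned by L cells. The marrow of all 4 libraries came from Lyz2Cre+ mice, which carry Cre recombinase at the Lyz2 locus, a driver active in myeloid cells. At day 7 the cells received 24 hours of serum-free medium that held LPS at 100 ng/ml with interferon gamma at 50 ng/ml for the 2 M1 libraries, or IL-4 with IL-13, each at 10 ng/ml, for the 2 M2 libraries. The series also used C57Bl/6 mice and the EGF receptor inhibitor erlotinib, but whether erlotinib was given to any of these 4 cultures is not stated. Both groups are polarized, so a gene that is lower in M2 may equally be called higher in M1. The comparison asks how the 2 polarizations differ in transcripts of the mitochondrial death pathway.

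Libraries held 26806370 to 39506242 gene counts, and the 10 genes together took 0.126% to 0.149% of them. The labels do not tie the 2 libraries of a group to different mice or cultures; p-values therefore reflect only library-to-library spread, which may be technical. CPM here is the count scaled to a common library size after TMM normalization, which corrects for differences in RNA composition between libraries. The 7 macrophage markers checked (Adgre1, Csf1r, Cd68, Itgam, Fcgr1, Mertk and Lyz2) were all above 1 CPM in both groups, with a summed level of 4950 to 5170 CPM in M1 and 4331 to 4442 in M2. Single macrophage markers differed widely within that sum: Csf1r (253 and 274 CPM in M1, 1672 and 1606 in M2) and Cd68 were higher in M2, and Adgre1, Itgam, Fcgr1 (684 and 472 in M1, 21.3 and 21.6 in M2), Mertk and Lyz2 were lower. Lyz2 (25.2 and 27.3 CPM in M1, 6.51 and 6.88 in M2) is also the locus that carries Cre in these mice. Whether this alters its counts was not tested, so its level says little about cell identity here. Markers of B cells, T cells, and mast cells or basophils summed to at most 2.36 CPM in any library, and those of eosinophils, erythroid cells and neutrophils to at most 12.7. Fibroblast markers (6 of 6 found, none at 0) summed to 110 to 119 CPM in M1 and 1137 to 1162 in M2: Col1a1, Col1a2, Col3a1 and Pdgfra were higher in M2, while Dcn (17.5 and 12.5 CPM in M1, 6.09 and 7.66 in M2) and Lum were lower. Dendritic cell markers (3 of 3 found, none at 0) summed to 32.5 to 33.3 CPM in M1, nearly all of it Xcr1, and to 1.61 to 2.36 in M2, where Xcr1 and Flt3 were lower and Zbtb46 was higher (0.857 and 0.935 CPM in M1, 2.20 and 1.41 in M2). Their part in the results below was not tested, and in bulk RNA fewer cells of a type and less RNA per cell cannot be told apart.

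The 10 genes divided into 3 that were lower in M2 by more than 1 log2 unit and 7 that differed by less. The 3 were Bcl2l14, Pmaip1 and Bak1, whose sizes of change rank 11, 1856 and 4017 among the 14656 tested genes. Bcl2l11 and Bcl2 were modestly higher in M2. Mcl1, Bcl2l1, Bax, Bbc3 and Bid were modestly lower on the TMM scale, and under total-count scaling Bcl2l1, Bax, Bbc3 and Bid reversed direction. In edgeR's quasi-likelihood test all 10 had an adjusted p under the threshold of 0.05: Bcl2 and Bcl2l11 as higher, and the other 8 genes as lower, with 4 of these 8 reversing as said. So many genes differ between these groups that the count says little about the family: 77.2% of the 14656 tested genes passed, 39.7% as higher and 37.5% as lower. A change of at least 1 log2 unit was found in 3 of the 10 and in 40.7% of all tested genes. The median size of change was 0.42 log2 units over the 10 genes against 0.76 over all tested genes, and the signed median was -0.36 against 0.04. The libraries of the groups did not overlap for any of the 10 genes on the TMM scale, which was so for 88.5% of tested genes.

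**Figure D1:**
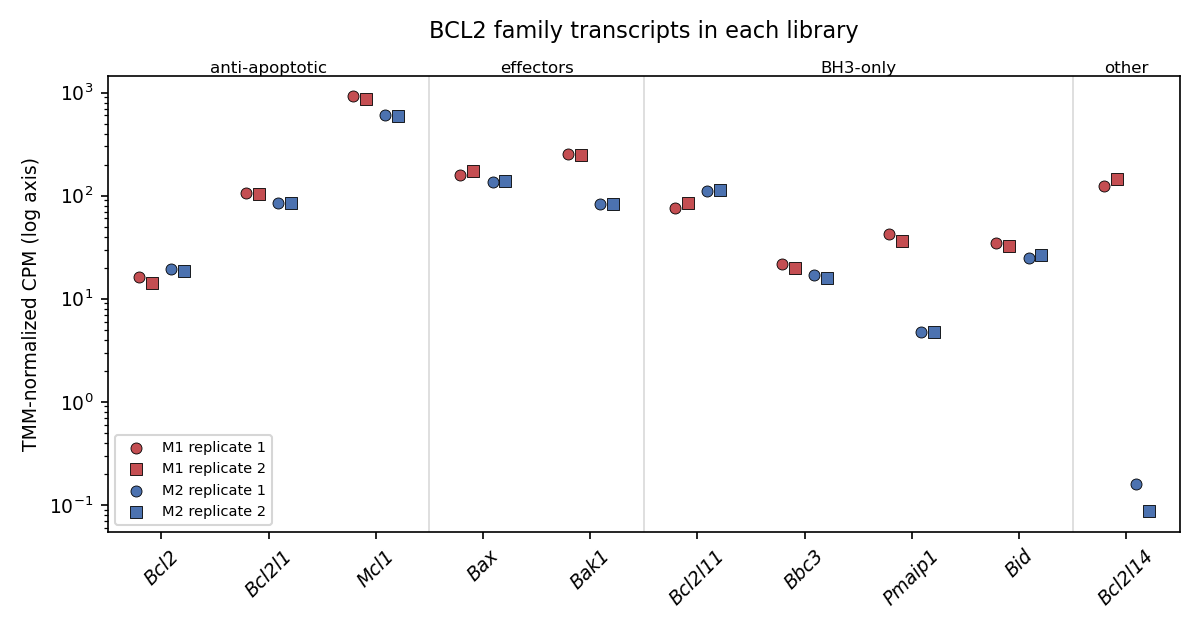
TMM-normalized CPM of each gene (log axis) in the 2 M1 libraries (red) and the 2 M2 libraries (blue), ordered by role, with 1 point per library. Bcl2l14, Pmaip1 and Bak1 stand clearly lower in M2, while Bcl2 and Bcl2l11 stand slightly higher; the smaller gaps of Bcl2l1, Bax, Bbc3 and Bid change direction under total-count scaling.

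The scale matters for the small changes. The TMM factor of each M1 library was below 1 (0.846 and 0.866) and that of each M2 library was 1.17. With total-count scaling in its place the log2 fold change of a typical gene shifted toward M2 by 0.45, and with upper-quartile scaling by 0.18. The calls of the 10 genes then became 4 higher and 3 lower under total counts, and 2 higher and 6 lower under upper-quartile scaling, against 2 and 8 under TMM. Over all genes the share of calls that were higher in M2 went from 51.4% under TMM to 71.9% and 60.8%. Bcl2l14, Pmaip1 and Bak1 (lower) and Bcl2 and Bcl2l11 (higher) kept their direction and their call under all 3 scalings.

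**Figure D2:**
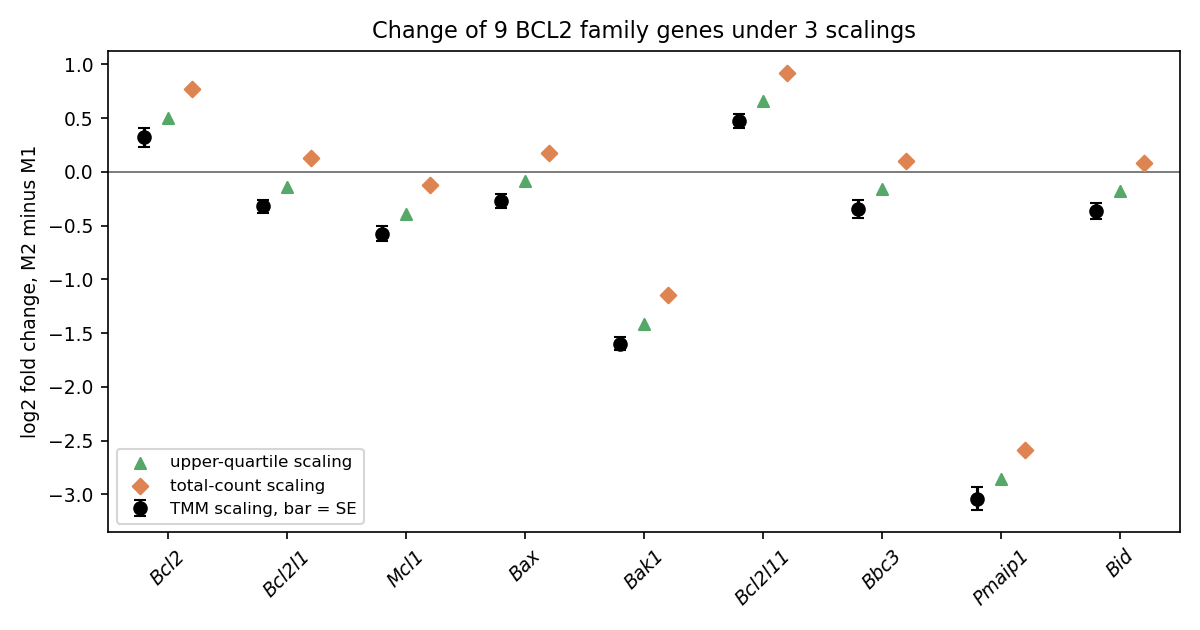
Log2 fold change, M2 minus M1, of 9 of the genes under TMM scaling (black, bar = SE), upper-quartile scaling (green) and total-count scaling (orange); Bcl2l14, near -10, is left out to keep the axis readable. Bcl2l1, Bax, Bbc3 and Bid lie below 0 under TMM and above 0 under total counts, and Bak1 and Pmaip1 lie below -1 under all 3.

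Bcl2l14 encodes BCL-G, a BCL2-like protein whose role in apoptosis is less settled than that of the other members. It lies at chr6:134396318-134438736 (GRCm38, plus strand, ENSMUSG00000030200). Its M1 libraries held 3629 and 3558 counts, or 124 and 145 CPM, and its M2 libraries held 5 and 4 counts, or 0.160 and 0.0868 CPM. It was thus close to absent from M2 and among the well-expressed genes of M1, where its level per kilobase of exon exceeded that of 88.9% of tested genes. The log2 fold change was -10.13 (SE 0.17, adjusted p = 7.26e-16), the size of which ranks 11 among the 14656 tested genes. Because only 9 M2 counts support it, the pooled count ratio of 1150 in favour of M1 carries an exact 95% interval of 606 to 2517, which covers counting error only, since PCR reads without molecular identifiers are not independent molecules. Of the 3 dendritic cell markers, Xcr1 moved the same way, from 30.9 and 31.9 CPM in M1 to 0.0638 and 0.0868 in M2. Flt3 was also lower in M2 (0.789 and 0.447 CPM in M1, 0.0957 and 0.108 in M2). Zbtb46 went the other way (0.857 and 0.935 CPM in M1, 2.20 and 1.41 in M2). Whether dendritic cells have a part in this difference was not tested.

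The antisense gene 4933406J09Rik shares 577 bases, 14.1% of the exonic length of Bcl2l14, on the other strand. It had 870 and 769 counts in the M1 libraries and none in M2, at least 787-fold higher in M1 against a floor of 3 counts over the M2 group. The library kit does not mark strand, so reads from the shared bases cannot be told apart between these genes.

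RefSeq lists starts of Bcl2l14 at different places, and their promoter windows are shown because this gene has the largest difference of the family. Each window runs from 250 bases before to 50 after a start and is written 5′ to 3′ on the gene's strand (GRCm38.p6). Capitals mark matches to the motifs searched. The window of a Bcl2l1 start is set beside them because it holds the same STAT6-type motif, and that of Bak1 because Bak1 differed clearly. Whether a motif goes with a change in level was not tested.
Bcl2l14 upstream start, chr6:134396079-134396378, plus strand: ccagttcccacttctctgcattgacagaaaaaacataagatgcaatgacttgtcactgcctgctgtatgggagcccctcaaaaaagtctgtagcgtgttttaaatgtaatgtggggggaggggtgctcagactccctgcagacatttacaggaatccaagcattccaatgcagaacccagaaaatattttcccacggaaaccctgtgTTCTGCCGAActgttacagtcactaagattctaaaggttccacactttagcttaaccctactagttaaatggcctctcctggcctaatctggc
Bcl2l14 downstream start, chr6:134414178-134414477, plus strand: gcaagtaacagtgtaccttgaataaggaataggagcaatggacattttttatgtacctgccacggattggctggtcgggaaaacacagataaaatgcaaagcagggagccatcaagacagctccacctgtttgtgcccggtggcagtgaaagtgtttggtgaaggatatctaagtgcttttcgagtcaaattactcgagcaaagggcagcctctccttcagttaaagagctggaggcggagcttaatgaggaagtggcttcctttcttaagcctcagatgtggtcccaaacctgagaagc
Bcl2l1, chr2:152828440-152828739, minus strand: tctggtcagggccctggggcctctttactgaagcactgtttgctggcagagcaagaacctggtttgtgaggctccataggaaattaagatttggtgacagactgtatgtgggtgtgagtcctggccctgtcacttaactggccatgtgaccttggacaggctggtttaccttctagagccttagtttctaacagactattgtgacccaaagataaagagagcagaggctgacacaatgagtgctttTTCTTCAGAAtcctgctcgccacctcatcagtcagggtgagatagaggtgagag
Bak1, chr17:27028578-27028877, minus strand: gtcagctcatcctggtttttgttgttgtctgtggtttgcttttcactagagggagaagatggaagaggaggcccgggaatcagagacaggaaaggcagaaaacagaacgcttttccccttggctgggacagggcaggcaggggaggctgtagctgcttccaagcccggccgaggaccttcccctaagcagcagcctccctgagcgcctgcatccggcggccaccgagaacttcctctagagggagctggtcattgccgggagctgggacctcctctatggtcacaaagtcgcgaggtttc

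Windows were found for 9 of the 10 genes, 15 in all, and each was searched on both strands. Pmaip1 had no window, so its promoter was not searched. The interferon-stimulated element, GAAA, 2 free bases and GAAA, was in none of the 15 and in 3.43% of all 32817 windows. The motif that STAT6 can bind, TTC and GAA with 4 free bases between them, was in 6.94% of all windows and in 2 of the 15, those of the upstream Bcl2l14 start and of the Bcl2l1 start printed above. The NF-kappaB motif (4.50% of all) matched 2 windows, of Bcl2l1 and Bbc3, and the single p53 decamer (8.35% of all) matched that of Bax. In the Bbc3 window the NF-kappaB motif matched on both strands, at places that overlap. These matches describe the letters of short windows and do not show binding.

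Among the 3 anti-apoptotic genes of the 10, Mcl1 was the most abundant and was lower in M2, whereas Bcl2 was the least abundant and was higher. Mcl1 (chr3:95658788-95663176, plus strand, ENSMUSG00000038612) encodes a short-lived survival protein. It had 916 and 865 CPM in M1 and 600.5 and 596 in M2, a log2 fold change of -0.57 (SE 0.07, adjusted p = 1.76e-06), and both M1 libraries were above both M2 libraries. Under total-count scaling its value was -0.13 and the call was lost (adjusted p = 0.0835).

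Bcl2 (chr1:106538178-106714274, minus strand, ENSMUSG00000057329), the founding member, had 16.1 and 14.1 CPM in M1 and 19.5 and 18.4 in M2. The rise of 0.32 log2 units (SE 0.09, adjusted p = 0.00567) was small and the M1 libraries themselves differed by 0.19. DESeq2 gave 0.30 with an adjusted p of 0.0529, and without M2 replicate 1 the adjusted p was 0.0552, so the call was lost under both.

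Bcl2l1 (chr2:152780668-152831728, minus strand, ENSMUSG00000007659) encodes BCL-XL and, by splicing, a shorter pro-apoptotic form that gene counts do not separate. It had 107 and 104 CPM in M1 and 84.6 and 84.0 in M2. The log2 fold change was -0.32 (SE 0.06, adjusted p = 1.39e-04) on the TMM scale and 0.13 (adjusted p = 0.0491) under total-count scaling.

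The effectors differed from each other. Bak1 (chr17:27019810-27029009, minus strand, ENSMUSG00000057789), whose protein sits in the outer mitochondrial membrane, had 253 and 249 CPM in M1 and 83.5 and 82.4 in M2. The replicates were nearly equal in both groups, and the 3.03-fold excess in M1 gave a log2 fold change of -1.60 (SE 0.06, adjusted p = 2.17e-12). It shares 437 bases with Ggnbp1 on the other strand, which had 321 counts over the 4 libraries against 19920 for Bak1.

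Bax (chr7:45461697-45466898, minus strand, ENSMUSG00000003873), whose protein moves from the cytosol to mitochondria on activation, had 158 and 174.5 CPM in M1 and 136 and 140 in M2. Its log2 fold change was -0.27 (SE 0.07, adjusted p = 0.00156) under TMM, -0.09 (adjusted p = 0.238) under upper-quartile scaling and 0.18 (adjusted p = 0.0234) under total-count scaling. Its direction therefore depends on the scaling, and that of Bak1 does not.

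BH3-only genes went different ways. Pmaip1 (chr18:66458533-66465565, plus strand, ENSMUSG00000024521) encodes NOXA, which binds MCL1 and promotes its loss. It had 42.6 and 35.9 CPM in M1 and 4.79 and 4.77 in M2, an 8.22-fold excess in M1. The log2 fold change was -3.04 (SE 0.11, adjusted p = 8.01e-13), and the groups lay far outside the difference of 0.25 log2 units between the M1 libraries.

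Bcl2l11 (chr2:128126038-128162547, plus strand, ENSMUSG00000027381) encodes BIM, which binds all the main anti-apoptotic proteins and is known for its role in the turnover of immune cells. It had 76.2 and 85.2 CPM in M1 and 110 and 114 in M2, a 1.39-fold rise. The log2 fold change was 0.48 (SE 0.07, adjusted p = 8.99e-06), and it was the BH3-only member that rose, with the other 3 lower in M2 on the TMM scale, of which Bbc3 and Bid turned upward under total-count scaling.

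Bbc3 (chr7:16308393-16318205, plus strand, ENSMUSG00000002083), which encodes the p53 target PUMA, had 21.7 and 19.8 CPM in M1 and 16.8 and 16.0 in M2. Its log2 fold change of -0.34 (SE 0.09, adjusted p = 0.00211) was not called under upper-quartile scaling (-0.16, adjusted p = 0.107) or without M2 replicate 2 (-0.29, adjusted p = 0.0620), and was 0.10 (adjusted p = 0.276) under total counts.

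Bid (chr6:120891930-120916853, minus strand, ENSMUSG00000004446) links death receptors to mitochondria, after caspase-8 cleaves its protein. It had 34.5 and 32.3 CPM in M1 and 24.9 and 26.8 in M2, a log2 fold change of -0.37 (SE 0.07, adjusted p = 3.80e-04) that became 0.082 (adjusted p = 0.323) under total counts. Bid shares 628 bases with the family gene Bcl2l13 on the other strand, which had 986 and 841 counts in M1 and 1224 and 1813 in M2, so part of either count may belong to the other gene.

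Levels of different genes were compared per kilobase of exon, on the CPM scale. In M1 the order was Mcl1 (261 ± 10.5, SD, n = 2), Bax (105 ± 7.43), Bak1 (104 ± 1.03), Bcl2l14 (32.9 ± 3.48), Bcl2l1 (23.0 ± 0.363), Pmaip1 (14.4 ± 1.73), Bcl2l11 (10.1 ± 0.785), Bbc3 (9.78 ± 0.649), Bid (9.41 ± 0.444) and Bcl2 (1.65 ± 0.156). The M1 libraries of Bax and Bak1 overlapped, as did those of Bcl2l11 and Bbc3, and of Bbc3 and Bid, so these neighbours cannot be ordered. In M2 the order was Mcl1 (175 ± 0.833, SD, n = 2), Bax (87.4 ± 1.77), Bak1 (34.5 ± 0.329), Bcl2l1 (18.4 ± 0.0922), Bcl2l11 (14.0 ± 0.285), Bbc3 (7.73 ± 0.285), Bid (7.28 ± 0.363), Bcl2 (2.07 ± 0.0847), Pmaip1 (1.75 ± 0.00333) and Bcl2l14 (0.0301 ± 0.0126), with Bbc3 and Bid overlapping. Mcl1 held the top place in both groups, above 98.5% and 98.6% of all tested genes, and Bcl2 ranked among the lowest of the 10. Bcl2l14 went from the fourth to the last place and Pmaip1 from the sixth to the ninth. With the length of the longest transcript in place of all exons, Mcl1, Bax and Bak1 kept the top 3 places in both groups, while Pmaip1 took place 7 in M1.

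Levels were summed by role over members only, with Bcl2, Bcl2l1 and Mcl1 as the anti-apoptotic genes. Other survival genes of the family, such as the A1 genes described below, were left out of every sum. Those A1 genes together had 547 and 581.5 CPM in the M1 libraries and 49.3 and 48.9 in the M2 libraries. Of the sum of Bcl2, Bcl2l1 and Mcl1 per kilobase, Mcl1 made up 91.4% in M1 and 89.5% in M2. The anti-apoptotic sum was 293 and 277 in the M1 libraries and 196 and 195 in the M2 libraries, the effector sum 205 and 214 against 121 and 123, and the BH3-only sum 45.1 and 42.2 against 30.5 and 31.0. All 3 sums were lower in M2, with log2 changes of -0.54, -0.78 and -0.51 under TMM and of -0.096, -0.34 and -0.057 under total-count scaling. As shares of the 9 genes other than Bcl2l14, which no scaling alters, the anti-apoptotic genes took 53.9% and 52.0% in the M1 libraries and 56.5% and 55.9% in M2. The effectors took 37.8% and 40.1% in M1 and 34.8% and 35.2% in M2, and the BH3-only genes 8.29% and 7.90% in M1 and 8.77% and 8.88% in M2. The groups did not overlap in any of the 3 shares, but the nearest libraries of the groups lay about as far apart as the 2 M1 libraries did. The direction of these shares holds only for these 9 genes and for the exon lengths used. Shares that include the A1 genes, which were higher in M1, or that use other lengths were not computed. These sums and shares describe transcripts and say nothing of protein.

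Ratios between genes within a library also do not depend on the scaling, and some of them differed widely between the groups. Bak1 to Bax was 1.05 and 0.936 in the M1 libraries and 0.403 and 0.386 in the M2 libraries. Its log2 change of -1.33 was large beside a combined SD of 0.12 between replicates. Bcl2l11 to Mcl1 was 0.0354 and 0.0419 in M1 and 0.0783 and 0.0812 in M2, a 2.07-fold higher ratio of BIM to MCL1 transcript in M2. Pmaip1 to Mcl1 went the other way, from 0.0582 and 0.0519 to 0.00997 and 0.0100, 5.50-fold lower in M2. Of the 8 ratios that between BIM and NOXA transcripts shifted most: Bcl2l11 to Pmaip1 was 0.609 and 0.806 in M1 and 7.86 and 8.11 in M2, 11.4-fold higher in M2. Bcl2 to Mcl1 was 1.87-fold higher in M2, Bcl2l1 to Mcl1 1.19-fold, Bbc3 to Mcl1 1.18-fold and Bid to Mcl1 1.15-fold. The 8 ratios were chosen after the values were seen, and with 2 libraries against 2 an exact two-sided permutation test cannot go below p = 0.333, so none was tested.

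**Figure D3:**
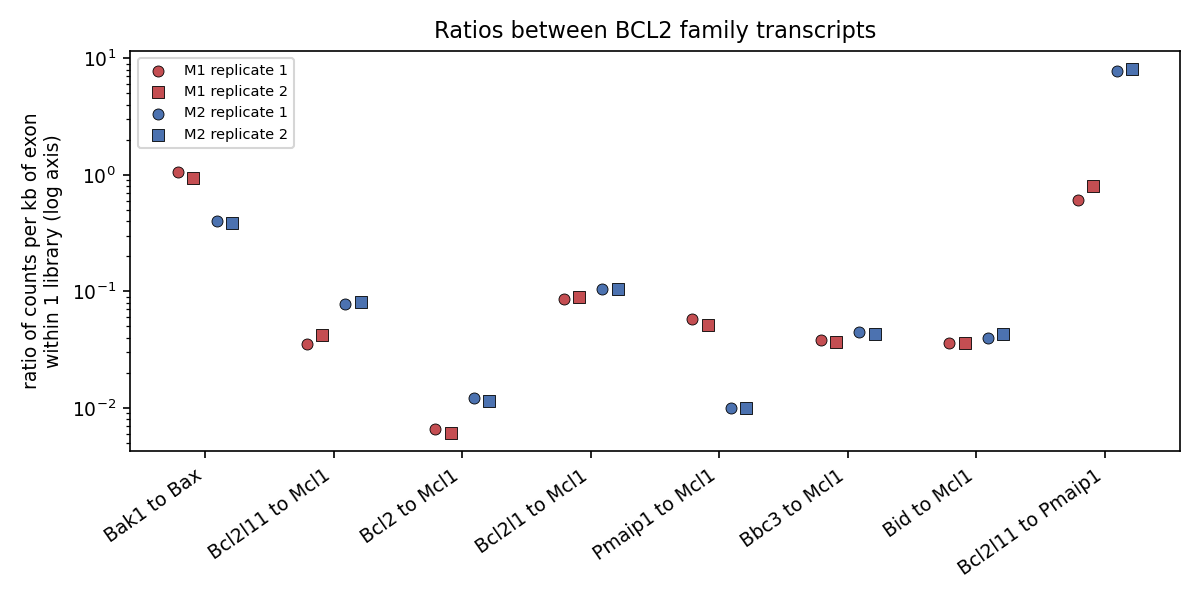
Ratio of counts per kilobase of exon between pairs of genes within each library (log axis), M1 in red and M2 in blue, with 1 point per library. Bak1 to Bax and Pmaip1 to Mcl1 lie lower in M2, and Bcl2l11 to Mcl1 and Bcl2l11 to Pmaip1 lie higher; the ratios of Bcl2l1, Bbc3 and Bid to Mcl1 lie close together.

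Other genes of the BCL2 family moved in both directions, in a list that also held Mtch2 and Vdac2 from outside the family. Of 17 listed, 13 were tested: 5 rose in M2, 6 fell and 2 were not called. The median log2 fold change was 0.05, against 0.04 over all tested genes. This median is the value of Vdac2 itself, which was not called, and Mtch2 (0.22) was among the 5 that rose. The counts and the median of this list therefore do not describe the family alone. The share called, 84.6%, was near the 77.2% of all tested genes. Under total-count scaling 7 rose and 5 fell. The largest falls were of A1 genes, induced survival genes close to Bcl2. Bcl2a1a had 81.6 ± 2.93 CPM in M1 and 1.45 ± 0.154 in M2 (log2 fold change -5.83, adjusted p = 2.23e-16), and Bcl2a1d had 189 ± 4.47 and 5.70 ± 1.06 (-5.07, adjusted p = 4.03e-15). These near-identical copies can share reads, so each value alone is uncertain, and so is their split from Bcl2a1b. Summed over Bcl2a1a, Bcl2a1b and Bcl2a1d they had 547 and 581.5 CPM in M1 and 49.3 and 48.9 in M2, 11.5-fold higher in M1.

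Bnip3, a mitophagy receptor induced by HIF1, fell from 188 ± 7.37 to 25.1 ± 0.259 CPM (-2.91, adjusted p = 4.29e-15). Its relative Bnip3l rose from 109 ± 6.20 to 150.1 ± 0.557 CPM (0.46, adjusted p = 8.48e-06). Bmf, a BH3-only gene, rose from 1.05 ± 0.453 to 7.97 ± 0.192 CPM (2.88, adjusted p = 3.97e-09), although its M1 libraries had 40 and 18 counts. Bok, an effector-like gene, had 2 counts over both M1 libraries and 158 over both M2 libraries, a pooled ratio of 54.8 in favour of M2 (exact 95% counting interval 14.9 to 457). Bcl2l10 and Hrk had no count in any library, and Bcl2l15 (3 counts in all) and Bik were also too low to be tested.

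Most apoptosome, caspase and inhibitor genes were lower in M2. Of 19 tested, 12 fell (37.5% of all tested genes fell), 4 rose (39.7%) and 3 were not called, so that 84.2% were called against 77.2% of all tested genes, with a median of -0.64 log2 units, and under total-count scaling 10 fell and 7 rose. Apaf1, the scaffold of the apoptosome, fell from 186 ± 21.0 to 51.9 ± 1.98 CPM (-1.85, adjusted p = 2.95e-11). The inhibitor Birc3, an NF-kappaB target that encodes cIAP2, fell from 365 ± 2.51 to 36.8 ± 2.48 CPM (-3.31, adjusted p = 2.47e-15). The initiator Casp9 rose instead, from 33.3 ± 1.88 to 58.9 ± 1.61 CPM (0.82, adjusted p = 2.72e-08), as did Casp6, from 15.0 ± 1.18 to 39.0 ± 0.583 (1.38, adjusted p = 3.57e-10). Birc5, which encodes survivin and is tied to cell division, was low throughout and rose from 1.07 ± 0.0818 to 2.11 ± 0.0902 CPM (0.97, adjusted p = 0.00142).

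Death receptor genes, which reach mitochondria through Bid, were mostly lower in M2. Of 9 listed, 8 were tested: 6 fell, 1 rose and 1 was not called, with a median of -1.17 log2 units. The share called was 87.5%, against 77.2% of all tested genes, of which 37.5% fell. Under total-count scaling 5 fell and 3 rose, and under upper-quartile scaling 5 fell and 2 rose. Fas, the receptor of Fas ligand, fell from 62.6 ± 5.36 to 4.23 ± 0.0623 CPM (-3.89, adjusted p = 8.25e-15). Tnfsf10, which encodes the ligand TRAIL, had unequal M1 libraries, with 1630 and 927 counts, and fell from 46.8 ± 12.9 to 0.998 ± 0.123 CPM (-5.57, adjusted p = 7.84e-05). Its receptor gene Tnfrsf10b rose from 2.16 ± 0.241 to 5.21 ± 0.278 CPM (1.26, adjusted p = 4.48e-06). Cflar, which encodes the caspase-8 inhibitor FLIP, fell from 1053 ± 25.7 to 71.5 ± 1.84 CPM (-3.88, adjusted p = 7.16e-16). Fasl had 12 counts in all and was not tested.

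The p53 pathway, which controls Bbc3, Pmaip1 and Bax, was split. Of 16 genes tested, 8 rose in M2, 5 fell and 3 were not called, with a median of 0.17 log2 units (81.2% called, against 77.2% of all tested genes), and under total-count scaling 11 rose and 3 fell. Cdkn1a, the cell cycle inhibitor p21, fell from 997 ± 63.7 to 252 ± 3.47 CPM (-1.99, adjusted p = 1.21e-12), and Mdm2, the ligase that removes p53, from 393 ± 20.2 to 149.9 ± 0.668 (-1.39, adjusted p = 2.70e-11). Btg2, an antiproliferative gene, fell from 97.2 ± 3.33 to 33.7 ± 0.873 CPM (-1.53, adjusted p = 5.64e-12). Sesn1, a stress-response gene, rose from 11.7 ± 1.35 to 100.5 ± 1.34 CPM (3.11, adjusted p = 1.78e-14), Phlda3, which restrains AKT, from 6.72 ± 0.484 to 22.6 ± 0.147 (1.74, adjusted p = 2.52e-10), and the receptor gene Eda2r from 0.885 ± 0.185 to 4.41 ± 0.348 (2.32, adjusted p = 9.34e-08).

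Among 17 regulators of transcription or turnover of the family, 9 fell in M2, 5 rose and 3 were not called, with a median of -0.18 log2 units (82.4% called, against 77.2% of all tested genes). Under total-count scaling 10 rose and 6 fell, and under upper-quartile scaling 6 rose and 6 fell, so the direction of the list rests on the scaling. Foxo3 and Foxo1, transcription factors that can activate Bcl2l11, rose from 58.1 ± 5.38 to 128 ± 1.97 CPM (1.14, adjusted p = 6.29e-10) and from 8.42 ± 0.745 to 18.8 ± 0.0574 CPM (1.16, adjusted p = 3.73e-08). Jun rose from 81.9 ± 2.58 to 197 ± 1.64 CPM (1.27, adjusted p = 4.10e-11), while Mapk8, which encodes the kinase JNK1, fell from 35.3 ± 1.42 to 13.2 ± 0.633 (-1.41, adjusted p = 2.81e-10). The survival kinase genes Pim1 and Pim2 fell from 704 ± 38.3 to 97.1 ± 0.849 CPM (-2.86, adjusted p = 1.26e-14) and from 19.2 ± 3.66 to 2.04 ± 0.222 CPM (-3.24, adjusted p = 5.35e-10).

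**Figure D4:**
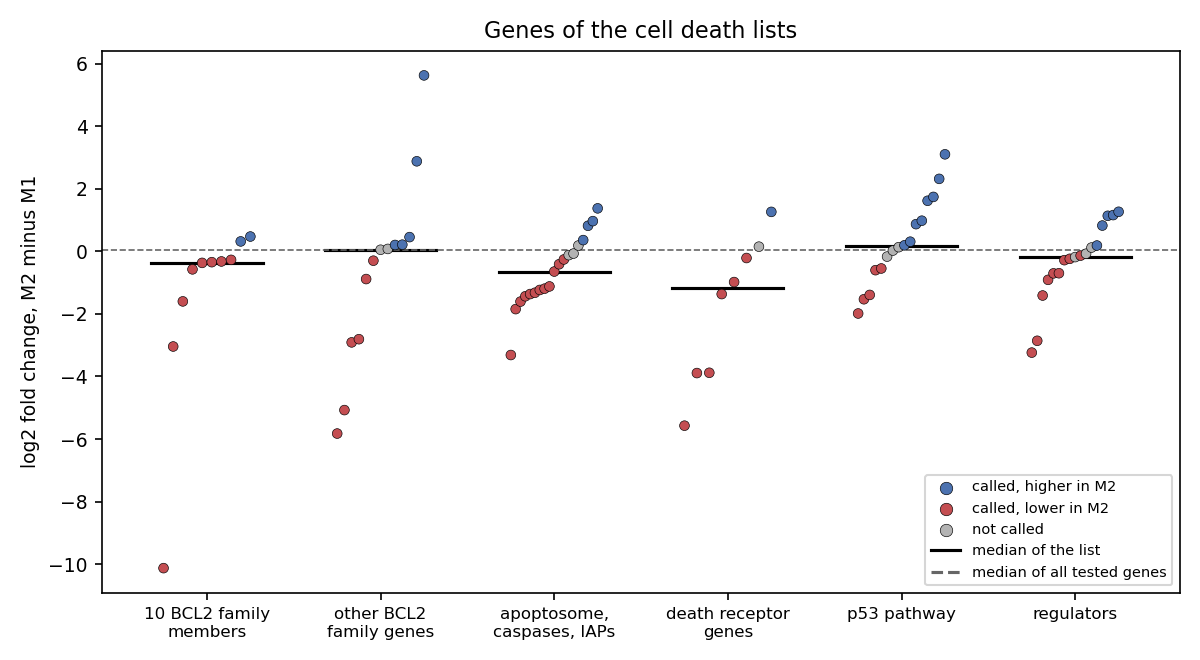
Log2 fold change, M2 minus M1, under TMM scaling of every tested gene in 6 lists, with called genes in blue (higher in M2) or red (lower in M2), others in grey, a bar at the list's median and a dashed line at the median of all tested genes. The medians of the death receptor list (-1.17) and of the apoptosome list (-0.64) lie below that of all genes (0.04). Under total-count scaling the calls of the BCL2 members become 4 higher and 3 lower, and those of the regulators 10 higher and 6 lower.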

How the data were processed

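Poly(A) RNA of 4 libraries (2 M1, 2 M2) was sequenced as paired reads with a kit that does not mark strand, per the labels' protocols. The authors deposited whole-number read counts per gene, not normalized. The submitters' processing notes name Trimmomatic 0.36, STAR 2.5.2b, Subread 1.5.2 with featureCounts, and both DESeq and DESeq2, on GRCm38, without saying which step each tool served or how it was set. A deposited comparison table was left aside. Gene IDs were matched to GENCODE vM21, and 49056 of 49315 had a symbol. Replicate numbers follow accession order and pair nothing.

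Counts were tested with edgeR 4.0.16 in R 4.3.3: filterByExpr (minimum count 10, minimum total 15), TMM scaling, a quasi-likelihood fit with robust spread, a two-sided test of M2 minus M1, and Benjamini-Hochberg adjustment over the 14656 tested genes, calls at an adjusted p under 0.05. The SE of a log2 fold change was taken as its size over the square root of F, and replicate libraries had a common BCV (biological coefficient of variation) of 0.0528. Levels per length divide CPM by the union of exons. The code was also run on simulated data, 10 sets in all. In each set 200 genes were changed, in directions drawn at random, and all genes had the common BCV. In the real data 77.2% of tested genes were called, so these sets do not test the choice of scaling. Alternatives were RLE, upper-quartile and total-count scaling, no filter, a filter of 5 CPM in 2 libraries, DESeq2 1.42.0, limma-voom (limma 3.58.1), a non-robust spread and each library left out in turn.

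The members and lists were chosen with earlier results of these data known. The 10 members were always named; of each other list, up to 3 called genes each way with the largest fitted change and at least 1 CPM in the higher group, and every untested gene, except that some items are not reported here. Bcl2a1b, Bcl2l13, Mtch2, Vdac2, Ggnbp1, 4933406J09Rik and the cell type markers given singly were named after their values were seen. A search of the proteins for the BH3 motif had been planned and was not run. Promoter windows come from RefSeq on GRCm38.p6.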

Additional observations from a re-analysis of the deposited data

How the results depend on the processing

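Under 12 alternatives each, Bcl2l14, Pmaip1, Bak1 and Bcl2l11 kept their direction and call, with log2 fold changes of -10.52 to -9.67, -3.16 to -2.59, -1.62 to -1.15 and 0.39 to 0.92. Under total-count scaling 4 genes reversed: Bcl2l1 (0.13), Bax (0.18), Bbc3 (0.10) and Bid (0.082); that scaling omits the TMM factors, which moves every gene upward in M2 alike. It also moved the role sums (log2 of M2 over M1) to -0.096 for anti-apoptotic genes, -0.34 for effectors and -0.057 for BH3-only genes, and lengths of the longest transcript moved them to -0.68 for effectors and -0.35 for BH3-only genes, since other lengths weight the genes of a sum differently. Leaving out a library gave 9 to 10 called members, role sums of -0.58 to -0.50, -0.81 to -0.75 and -0.55 to -0.46 in the same order, and a Bcl2l14 ratio of 838 to 1541. Called counts of all lists and of all genes stayed within 1.5 times their main value under every alternative run; the smallest of all genes was 8359, under the 5 CPM filter. The leave-out of role sums, of the Bcl2l14 ratio and of ratios between genes was added after the data were seen. Where a library was left out, its group's lone library was assumed to vary like the other group. The groups did not vary alike: the spread between replicates, as chi-square per degree of freedom, was 14.7 in M1 and 2.41 in M2. Fits without an M1 library took their spread from the closer M2 libraries, so calls kept there are a weak check. No paired analysis was possible because the labels give no replicate numbers. Depth limits Bcl2l14 in M2 (9 counts) and Bok in M1 (2 counts).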

Other observations

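Some pairs of neighbouring genes in the death pathway moved in opposite directions, so that their ratio within a library, which no scaling alters, differed widely between the groups. These pairs were chosen after their values were seen and were not tested. Per kilobase of exon, Bnip3 to Bnip3l was 2.90 and 2.98 in the M1 libraries and 0.283 and 0.286 in the M2 libraries. Apaf1 to Casp9, which form the apoptosome together, was 3.35 and 3.09 in M1 and 0.511 and 0.504 in M2. The ligand to receptor ratio Tnfsf10 to Tnfrsf10b was 24.8 and 19.6 in M1 and 0.224 and 0.175 in M2. Cdkn1a to Sesn1, both known p53 targets, was 108 and 84.2 in M1 and 2.86 and 2.76 in M2.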
